A study of Mus musculus with 39 samples.

Results

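The comparison asked how the effect of mouse strain on gut gene expression differed between the colon and the small intestine. All 39 RNA-seq libraries of the series entered it. They came from 13 mice of 2 inbred strains, 6 BALB/cJ and 7 C57BL/6J, each giving a colon, an ileum and a duodenum/jejunum library, so that there were 6 groups of 6 or 7 libraries. Total RNA was depleted of ribosomal RNA before sequencing. No group carried a treatment or an introduced allele according to the labels, and sex, age, housing, collection date and the length of gut taken are not given in the sources used here.

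Levels were deposited as log2(TPM + 1), where TPM is a transcript level scaled to a fixed total per library, a share of each library's transcripts corrected for transcript length. In every mouse, the mean of the ileum and duodenum/jejunum values was subtracted from the colon value, and the 6 BALB/cJ differences were then compared with the 7 C57BL/6J differences. The outcome is called the regional strain difference below. It equals the strain effect in the colon minus the strain effect in the small intestine, each as BALB/cJ minus C57BL/6J, so a positive value means that BALB/cJ stood relatively higher in the colon. Of 34574 named entries, 17126 reached 1 TPM in 6 or more libraries and were tested. At the edge of that filter, 190 genes with exactly 6 such libraries were tested (median of their mean levels 0.582 TPM), and 182 genes with exactly 5 were not (0.50 TPM).

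As background, the small intestine absorbs nutrients through a large villous surface, and its crypts hold Paneth cells, which secrete alpha-defensins and other antimicrobial proteins. The colon has no villi, absorbs water and salt, and faces a far denser microbial community across a mucus layer. An inbred strain is fixed at nearly every locus, so a strain effect on a gene can be read in each part of the gut from the same genotype.

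TPM totals ran from 978462 to 994059 per library and 14537 to 16165 genes reached 1 TPM. Read depth cannot be recovered from TPM. One mouse stood apart: the ileum library of C57BL/6J mouse 2, by its label, had 22.1 TPM of the ileal bile acid binding protein gene Fabp6 and 51.2 TPM of the proximal enteropeptidase gene Tmprss15, whereas its duodenum/jejunum library had 6110 TPM of Fabp6 beside 39.2 TPM of Tmprss15. In the ileum libraries of the other C57BL/6J mice, Fabp6 ranged from 3770 to 8190 TPM and Tmprss15 stayed at or below 0.0304 TPM. In the duodenum/jejunum libraries of the other C57BL/6J mice, Fabp6 ranged from 3.12 to 32 TPM and Tmprss15 from 12.2 to 57.9 TPM. The ileum library of mouse 2 thus went against its label in both genes, and its duodenum/jejunum library did so in Fabp6 but not in Tmprss15, so that the markers do not show a plain exchange of the 2 libraries. Both entered the mean over the small intestine as labelled. Ranges printed below for the C57BL/6J ileum or duodenum/jejunum include them as labelled, which sets many of the lowest or highest ileum values.

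The regional strain difference passed the test in 962 genes (adjusted p under 0.05, limma with Benjamini-Hochberg adjustment over all genes tested), which is 5.62% of the genes tested. It was positive in 503 genes (2.94%) and negative in 459 (2.68%). Its size was 1 or more on the log2 scale in 193 of the positive and 97 of the negative genes, and 2 or more in 75. The median over all 17126 genes was -0.07. In 518 of the 962 genes the per-mouse values of the strains did not overlap, and over all genes tested that held for 3.30%. With RLE scaling between libraries (a median-of-ratios size factor) the split moved to 683 positive and 395 negative genes, or 63.4% positive against 52.3%. The range of the total was 723 to 1096 when each mouse was left out in turn, and 627 positive and 461 negative genes were called without C57BL/6J mouse 2. The positive count was 842 when BALB/cJ mouse 2, whose ileum library had the highest B cell marker sum, was left out as well, a setting chosen after seeing the data.

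The genes fell into distinct patterns according to the strain effect in each region. On the same scale the strain effect passed the test in 4107 genes in the colon (24%), with 2382 higher (13.9%) and 1725 lower (10.1%) in BALB/cJ. In the small intestine it passed in 2588 genes (15.1%), with 1809 higher (10.6%) and 779 lower (4.55%). Among the 962 genes called for the regional strain difference, 418 had a called strain effect in the colon alone and 263 in the small intestine alone. These were 15.6% of the 2678 tested genes with the first pattern and 22.7% of the 1159 with the second. Both effects were called with the same sign and the larger effect in the colon in 98 genes (14.8% of 661 tested). The larger effect was in the small intestine in 72 (10% of 718). Opposite signs were called in 50 genes, which were all tested genes with that pattern, and neither effect was called in 61 (0.514% of 11860). The patterns rest on the same values as the calls, and effects of opposite sign add up in the difference. The shares within patterns are therefore a description and not a separate test. The colon test rests on 1 library per mouse and the small intestine test on the mean of 2. Of the genes that reached 5 TPM in both regions, 618 of 11117 were called (5.56%), against 99 of 1039 (9.53%) where only the colon reached it and 82 of 547 (15%) where only the small intestine did. The log2(TPM + 1) scale cannot show a strain effect where a gene is not expressed. For genes expressed in a single region, the regional strain difference is thus mostly the strain effect in that region. This applies to Lpo, Klk15, Hoxd13 and Defa2 below.

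**Figure D1:**
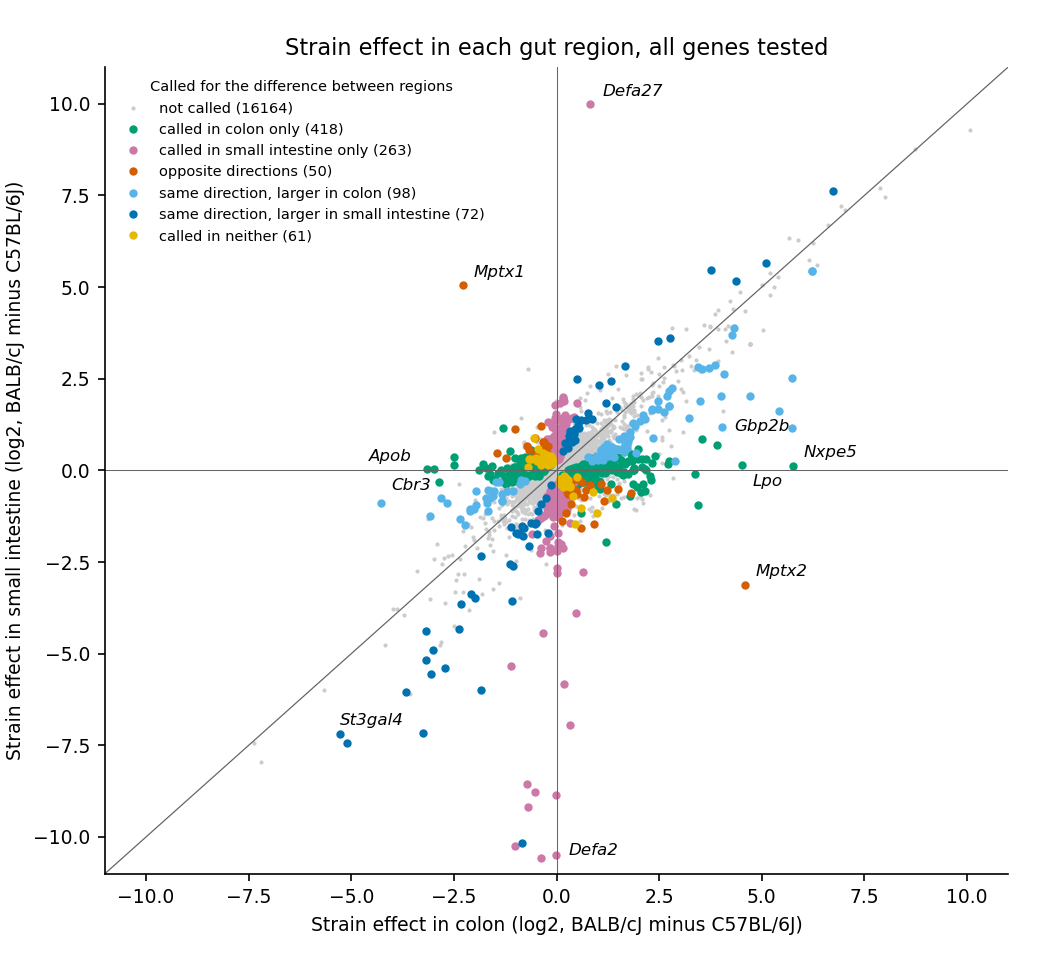
Strain effect in the colon (x axis) against that in the small intestine (y axis), both as log2 BALB/cJ minus C57BL/6J, for 17126 genes. Each point is a gene, coloured by pattern where the regional strain difference was called, and the diagonal marks equal effects. Mptx1 and Mptx2 lie in opposite quadrants, alpha-defensin genes lie along the vertical axis, and Nxpe5 and Lpo lie along the horizontal axis.

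The mucosal pentraxins, secreted relatives of C-reactive protein, changed places between the regions. Mptx1 (chr1:174330518-174332873, GRCm38) had 311 to 720 TPM in the BALB/cJ colon (median 541) and 1490 to 4710 TPM in the C57BL/6J colon (median 2500). In the ileum the order was the other way, at 158 to 234 TPM (median 221) in BALB/cJ and 1.60 to 4.46 TPM (median 2.11) in C57BL/6J. The duodenum/jejunum followed the ileum, with 46.0 to 119 TPM (median 72.8) against 1.42 to 5.93 TPM (median 2.90). The strains did not overlap in any of the 3 parts, and Mptx1 was thus 5.17-fold higher by its mean in the C57BL/6J colon and 80.1-fold higher in the BALB/cJ ileum. Its regional strain difference was -7.33 ± 0.233 (SE, adjusted p = 7.22e-11).

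Mptx2 (chr1:173274382-173277777), which is known from Paneth cells, had the mirror image. The BALB/cJ colon had 28.6 to 57 TPM (median 45.3) and the C57BL/6J colon 0.384 to 1.34 TPM (median 0.915). In the ileum BALB/cJ had 23.3 to 102 TPM (median 64.6) and C57BL/6J 33.2 to 1180 TPM (median 779), where the lowest C57BL/6J value was that of mouse 2. In the duodenum/jejunum the values were 22.2 to 62.4 TPM (median 51.3) and 257 to 584 TPM (median 284). The regional strain difference of Mptx2 was 7.70 ± 0.47 (SE, adjusted p = 9.32e-08). The level of Mptx2 in BALB/cJ was thus of like size in all 3 parts, while in C57BL/6J it was near 1 TPM in the colon and far higher in the small intestine. The sum of both genes differed less: its regional strain difference was -0.851 and missed the threshold (exact permutation test over all 1716 splits of the mice, 2-sided p = 0.198, adjusted over 4 gene families 0.198). Reads that match both copies could have been assigned to either.

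**Figure D2:**
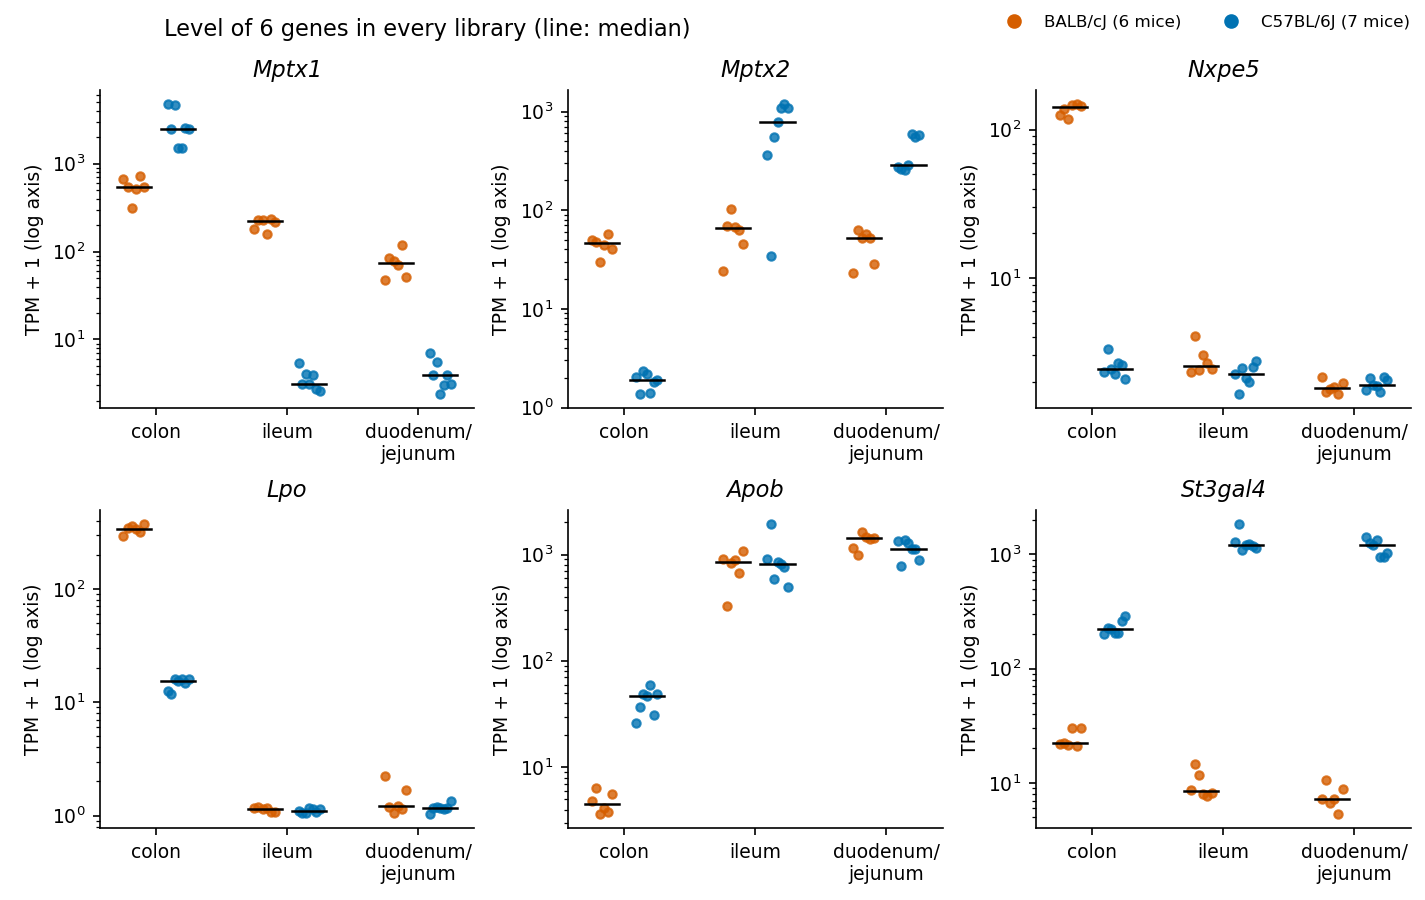
TPM + 1 on a log axis for 6 genes in every library, by part of the gut, with BALB/cJ (6 mice) in orange, C57BL/6J (7 mice) in blue and the group median as a line. Mptx1 and Mptx2 change their order between colon and small intestine, Nxpe5 and Lpo separate the strains in the colon, Apob is lower in the BALB/cJ colon, and St3gal4 separates them in all 3 parts.

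Opposite strain effects of smaller size were found in genes of several kinds. Gal3st2b (chr1:93918311-93942650), a galactose sulfotransferase, had medians of 7.47 TPM in BALB/cJ and 16.9 TPM in C57BL/6J in the colon and 29.4 against 15.8 TPM in the duodenum/jejunum (regional strain difference -2.15 ± 0.271, adjusted p = 0.000191). Aim2, a cytosolic DNA sensor that assembles an inflammasome, had 51.5 to 58.8 TPM in the BALB/cJ colon and 72.4 to 90.4 TPM in the C57BL/6J colon, without overlap. In the duodenum/jejunum Aim2 had 17.7 to 33 TPM and 7.31 to 16.9 TPM, again without overlap but in the other order (-1.41 ± 0.129, adjusted p = 1.01e-05). Acy1, an aminoacylase, was 1.67-fold higher by its mean in the C57BL/6J colon and 1.99-fold higher in the BALB/cJ duodenum/jejunum.

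Myl7, an atrial myosin light chain gene, ran the other way, with medians of 7.67 and 3.75 TPM in the colon (BALB/cJ first) and 5.09 and 22.6 TPM in the ileum (2.38 ± 0.143, adjusted p = 8.32e-08). Prkaa2, a catalytic subunit of AMP-activated kinase, and Galnt2, which starts mucin type O-glycosylation, had regional strain differences of -0.86 ± 0.11 (adjusted p = 0.000216) and -0.93 ± 0.162 (adjusted p = 0.00291). Ccdc28b had -1.22 ± 0.255 (adjusted p = 0.01). Guca2a, the precursor of guanylin, a peptide that drives fluid secretion, had medians of 2450 TPM in the BALB/cJ and 3010 TPM in the C57BL/6J colon. In the ileum its medians were 1270 and 849 TPM, and the regional strain difference was -1.07 ± 0.161 (adjusted p = 0.00092).

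A group of colon genes differed between strains in the colon while the small intestine values were low or alike. Lpo (chr11:87806428-87828289) encodes lactoperoxidase, which makes antimicrobial oxidants from thiocyanate. It had 292 to 369 TPM in the BALB/cJ colon (median 339) and 10.9 to 15.2 TPM in the C57BL/6J colon (median 14.4), a 24.6-fold difference of means. The highest small intestine value of Lpo in any mouse was 1.24 TPM. Its regional strain difference was 4.39 ± 0.136 (SE, adjusted p = 7.22e-11). Klk15, a kallikrein protease gene, had 16.4 to 29.2 TPM against 0.344 to 1.84 TPM in the colon and 0.727 TPM or less elsewhere (3.46 ± 0.212, adjusted p = 9.32e-08).

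Nxpe genes, which encode neurexophilin-like proteins expressed in colon epithelium, split by member. Nxpe5 (chr5:138225898-138253363) had 117 to 147 TPM in the BALB/cJ colon and 1.08 to 2.33 TPM in the C57BL/6J colon, and 3.08 TPM or less in the small intestine (5.64 ± 0.152, adjusted p = 1.97e-11). Nxpe4 (chr9:48162023-48400025) had the reverse order, with 1.33 to 1.73 TPM in the BALB/cJ colon and 31.6 to 64.3 TPM in the C57BL/6J colon (-3.38 ± 0.141, adjusted p = 9.72e-10). Nxpe2 was at 101 to 150 TPM in the colon of both strains. Its regional strain difference of 0.53 was called positive but kept its call in only 15 of the 29 alternatives. The sum of Nxpe2 to Nxpe5 was 263 ± 20.6 TPM (SD, n = 6) in the BALB/cJ colon and 174 ± 24.9 TPM (SD, n = 7) in the C57BL/6J colon, and its regional strain difference was 1.109 (exact permutation test, 2-sided p = 0.000583, the smallest value the 1716 splits allow, adjusted over 4 families 0.00117). The sum includes Nxpe5, so this test is not independent of the separation of Nxpe5 given above.

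Other genes stood low in BALB/cJ in the colon alone. Apob (chr12:7977648-8016835), the apolipoprotein B gene of chylomicrons, had 2.68 to 5.33 TPM in the BALB/cJ colon and 24.9 to 58.2 TPM in the C57BL/6J colon, an 11.2-fold difference of means without overlap. In the ileum its medians were 857 and 817 TPM, and in the duodenum/jejunum 1420 and 1140 TPM, with ranges that overlapped (-3.19 ± 0.308, adjusted p = 1.66e-05). Fxyd4, a regulator of the sodium pump, had 8.84 to 19.3 TPM in the BALB/cJ and 28.4 to 64.3 TPM in the C57BL/6J colon (-1.89 ± 0.206, adjusted p = 5.22e-05). Sstr1, a somatostatin receptor gene, had medians of 1.98 and 8.81 TPM there (-1.79 ± 0.192, adjusted p = 4.67e-05).

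Raet1e, of a family of ligands for an activating lymphocyte receptor, was 16.5-fold lower by its mean in the BALB/cJ than in the C57BL/6J colon, and the small intestine effect had the same sign but was smaller (-2.05 ± 0.198, adjusted p = 1.66e-05). Apol10a, an apolipoprotein L gene, was 9-fold lower there and 1.87-fold lower in the ileum (-1.86 ± 0.299, adjusted p = 0.00151). In the colon, Tgm3, a transglutaminase gene, had medians of 128 TPM in BALB/cJ and 252 TPM in C57BL/6J (-1.02 ± 0.166, adjusted p = 0.0017). Hoxd13, a positional gene of the hindgut, had medians of 21.4 and 12.9 TPM in the colon and was at or below 0.0651 TPM in all small intestine libraries (0.68 ± 0.158, adjusted p = 0.0193).

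Genes of the interferon response held more positive calls than any other list. Interferons act through a transcription factor complex that includes Stat2 and Irf9 and binds a short element in the promoters of its target genes. These include the Oas genes, which sense double-stranded RNA, the Ifit genes, which bind viral RNA, and the ubiquitin-like Isg15. Of 56 list members tested, 44 were called positive and 0 negative, against 2.94% and 2.68% of all genes tested, and the median difference was 1.08 against -0.07 over all genes. Leaving out 1 mouse at a time gave 43 to 46 members, and the lowest count over the 29 alternatives was 38 (colon minus ileum). By region, 51 of the 56 were higher and 1 lower in the BALB/cJ colon, and 5 were higher and 9 lower in the BALB/cJ small intestine. Over all genes tested the shares were 13.9% higher and 10.1% lower in the colon, and 10.6% and 4.55% in the small intestine.

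Per library, the mean log2(TPM + 1) over the 56 members was 4.81 to 5.34 (median 4.94) in the BALB/cJ colon and 3.70 to 3.98 (median 3.92) in the C57BL/6J colon. In the ileum the medians were 4.59 and 4.64 and in the duodenum/jejunum 4.60 and 4.52, with overlapping ranges. The C57BL/6J colon thus lay below every other group, and the BALB/cJ colon lay above the medians of both small intestine parts. Of the 44 members called, 33 had a called strain effect in the colon alone, 6 had opposite effects, 3 had effects of the same sign that were larger in the colon and 2 had one in the small intestine alone.

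**Figure D3:**
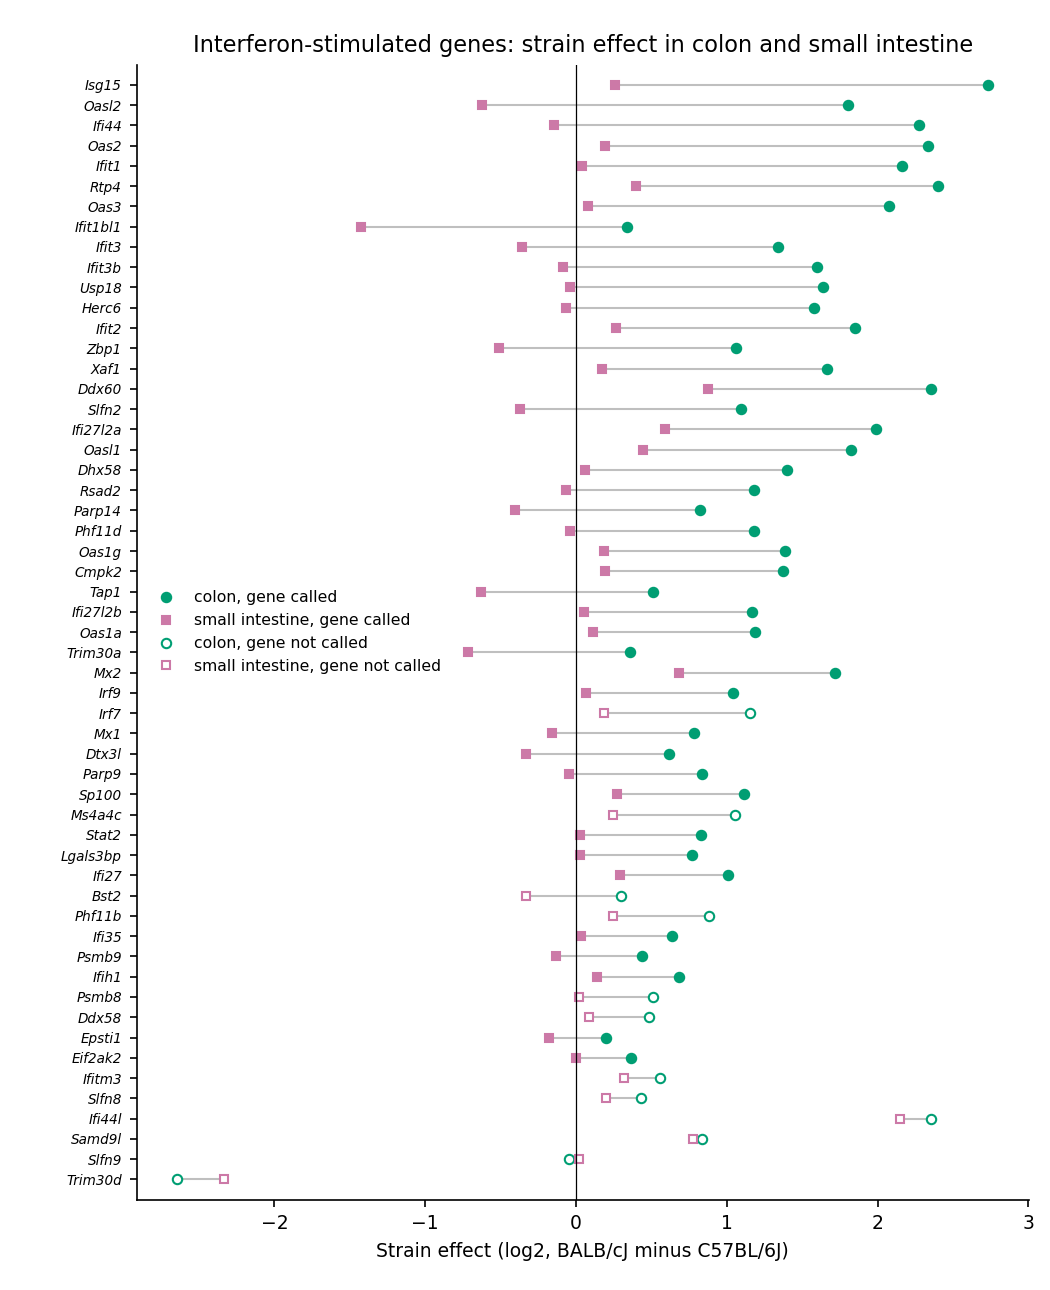
Strain effect (log2, BALB/cJ minus C57BL/6J) in the colon (green circles) and the small intestine (pink squares) for the interferon-stimulated genes except 1 member that is not shown, ordered by their regional strain difference. Filled symbols mark the genes called, with the colon value to the right of the small intestine value in each, and the largest difference, 2.48, is that of Isg15.

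Promoters are shown for 4 called members that were chosen for holding the element through which such genes are known to respond, taken by size of difference among the members that hold it (Ifit1bl1, between Oas3 and Ifit3 in that order, is not printed). Oasl2, Ifi44, Oas2 and Rtp4, with larger differences than Ifit3, are not among them. Capitals mark matches to the core of the interferon-stimulated response element, searched as GAAANNGAA on both strands, so that a match on the other strand appears as its reverse complement. Overlapping matches run together. Each line gives a window of 120 bases upstream of the start site on the gene's strand, from RefSeq promoters of GRCm38.p6. The window runs from base 120 to base 1 before the start in Isg15 and Oas3. It runs from base 129 to base 10 in Ifit1 and from base 175 to base 56 in Ifit3. The windows are chr4:156200819-156200938 for Isg15 (minus strand), chr19:34640760-34640879 for Ifit1 (plus strand), chr5:120777660-120777779 for Oas3 (minus strand) and chr19:34583354-34583473 for Ifit3 (plus strand). The window of Ifit3b holds the same letters as that of Ifit3, and reads of these near-identical neighbours may have been shared between them.
Isg15: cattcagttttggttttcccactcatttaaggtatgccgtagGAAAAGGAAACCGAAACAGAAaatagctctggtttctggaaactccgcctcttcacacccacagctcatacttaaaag
Ifit1: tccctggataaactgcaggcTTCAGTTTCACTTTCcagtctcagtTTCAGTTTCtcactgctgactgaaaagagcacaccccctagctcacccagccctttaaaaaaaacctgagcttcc
Oas3: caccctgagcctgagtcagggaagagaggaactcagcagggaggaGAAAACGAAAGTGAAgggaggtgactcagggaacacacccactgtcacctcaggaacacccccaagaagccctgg
Ifit3: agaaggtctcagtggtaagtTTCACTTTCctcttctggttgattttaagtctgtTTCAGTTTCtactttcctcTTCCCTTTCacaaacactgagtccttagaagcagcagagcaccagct

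Within 250 bases before the start, the core was found in 13 of the 31 called members with a promoter entry (41.9%) and in 6 of the 12 members not called (50%). Among all genes tested with an entry it was found in 906 of 11440 (7.92%). A match of letters is a description and not a binding site, and the share did not separate called from uncalled members.

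In the colon, Isg15 had 21.8 to 69.7 TPM (median 34.5) in BALB/cJ and 2.99 to 6.11 TPM (median 4.80) in C57BL/6J, without overlap. In the ileum it had medians of 15.9 and 16.7 TPM and in the duodenum/jejunum 26.4 and 19 TPM, with overlap in both (regional strain difference 2.48). Ifit1 had 31.2 to 60.8 TPM against 5.21 to 10.9 TPM in the colon, and medians of 20 and 24.4 TPM in the ileum. Oas3 had 12.8 to 29.8 TPM against 2.04 to 4.85 TPM in the colon, and medians of 11.2 and 13 TPM in the ileum. Ifit3 had 11.3 to 20.5 TPM against 3.38 to 6.49 TPM in the colon, and medians of 6.51 and 7.47 TPM in the ileum. In each of these 4 genes the strains were separate in the colon and overlapped in both small intestine parts.

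The smallest adjusted p-values of the list belonged to Oas2, Rtp4 and Irf9. Irf9, part of the transcription factor complex itself, had 39.3 to 52.0 TPM in the BALB/cJ and 17.3 to 25.6 TPM in the C57BL/6J colon, and a median of 30.3 TPM in the ileum of both strains (0.98 ± 0.0826, adjusted p = 3.94e-06). Oas2 had colon medians of 10 and 1.44 TPM (2.14 ± 0.176, adjusted p = 2.76e-06). Rtp4, an interferon-induced transport protein gene, had colon medians of 64.1 and 13.2 TPM and ileum medians of 25.1 and 19.1 TPM (2.00 ± 0.164, adjusted p = 2.76e-06). Ddx60, an RNA helicase gene, was higher in BALB/cJ in both regions and more so in the colon, by 5.34-fold of means (1.48 ± 0.222, adjusted p = 0.000854).

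Several members had called effects of opposite sign. Oasl2, an Oas-like gene, had 66.4 to 132 TPM in the BALB/cJ colon and 15.2 to 30.4 TPM in the C57BL/6J colon. Its small intestine order was reversed, with medians of 51.7 and 72.9 TPM in the duodenum/jejunum (2.43 ± 0.217, adjusted p = 7.97e-06). Tap1, which carries peptides to MHC class I molecules, had colon medians of 24.7 and 17 TPM and duodenum/jejunum medians of 29 and 49.8 TPM (1.14 ± 0.171, adjusted p = 0.000851). Rnf213, an interferon-responsive ubiquitin ligase gene outside the list, had colon ranges of 36.1 to 52.4 and 29.1 to 32.7 TPM and ileum medians of 39.7 and 65.7 TPM (1.06 ± 0.121, adjusted p = 8.11e-05).

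Related immune lists moved in the same direction with fewer members. The shares over all genes tested, 2.94% positive and 2.68% negative, apply to each list below. Of 19 guanylate-binding and immunity-related GTPase genes, which encode interferon-induced proteins that attack vacuoles with microbes, 8 were positive and 0 negative (median 0.643), and without BALB/cJ mouse 2 the count was 13. Gbp2b had 31.1 to 41.1 TPM in the BALB/cJ colon and 0.635 to 1.53 TPM in the C57BL/6J colon, 29.1-fold by means, and 4.26-fold in the ileum (2.83 ± 0.163, adjusted p = 5.18e-08). Gbp3 had colon medians of 25.8 and 7.75 TPM (1.28 ± 0.228, adjusted p = 0.00324). Of 25 genes of MHC class I presentation, 10 were positive and 0 negative (median 0.432), and the positive count was 5 for colon minus ileum. H2-Q4 had colon medians of 111 and 32.9 TPM and ileum medians of 120 and 79.5 TPM (1.02 ± 0.109, adjusted p = 4.53e-05). H2-Q6 had 0.99 ± 0.117 (adjusted p = 0.000113), whereas H2-Q2 was lower in BALB/cJ in both regions and more so in the small intestine (1.42 ± 0.199, adjusted p = 0.000494). The H2-Q genes are close copies with strain-specific haplotypes, and reads of BALB/cJ could be assigned to other copies of the reference.

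Of 14 MHC class II presentation genes, 6 were positive and 1 negative (median 0.649), against 2.94% and 2.68% of all genes tested. H2-Ab1 had 270 to 564 TPM in the C57BL/6J and 100 to 161 TPM in the BALB/cJ duodenum/jejunum and overlapping colon ranges (0.95 ± 0.2, adjusted p = 0.0107). H2-DMb1, which helps load peptides, had the same pattern (1.08 ± 0.191, adjusted p = 0.00308). Cxcl9, a chemokine induced by interferon gamma, had duodenum/jejunum medians of 1.42 TPM in BALB/cJ and 4.18 TPM in C57BL/6J (1.05 ± 0.211, adjusted p = 0.0081). The negative member was H2-Ea-ps, an MHC gene named here after its value was seen (-0.90 ± 0.135, adjusted p = 0.000821). Its symbol marks it as a pseudogene in the reference, and whether that holds in BALB/cJ was not tested. The positive count was 3 without BALB/cJ mouse 1, 3 or 5, up to 8 without other mice, and 0 for colon minus ileum.

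Markers of lymphoid cells moved with these immune genes, while myeloid markers rarely passed the test in the comparison as reported. Of 22 B cell and germinal centre genes 10 were positive and 0 negative (median 0.641), against 2.94% and 2.68% of all genes tested. Of 22 T cell and intraepithelial lymphocyte genes the counts were 7 and 0 (0.404), and of 15 plasma cell genes 5 and 0 (0.661). Pou2af1 is a member of both the B cell and the plasma cell list. Left-out mice moved these counts: B cell genes ran from 4 (without BALB/cJ mouse 1 or 4) to 10, T cell genes from 4 (without BALB/cJ mouse 1 or 5 or C57BL/6J mouse 1) to 8, and plasma cell genes from 2 (without BALB/cJ mouse 1, 3, 5 or 6) to 7. For colon minus ileum the counts were 0 for B cell, 2 for T cell and 0 for plasma cell genes. Of 23 macrophage and dendritic cell genes, 17 were higher and 0 lower in the BALB/cJ colon, against 13.9% and 10.1% of all genes tested. Of the 23, 1 was positive for the regional strain difference (median 0.465), near the share over all genes. That count was 17 for colon minus duodenum/jejunum, 0 for colon minus ileum, 5 without BALB/cJ mouse 2, 11 without C57BL/6J mouse 2 and 17 without both, and 0 or 1 without any other mouse. The summed B cell markers were 118 to 189 TPM in the BALB/cJ colon and 45.1 to 80.6 TPM in the C57BL/6J colon, without overlap. In the ileum they were 237 to 495 and 80.8 to 316 TPM and in the duodenum/jejunum 89.0 to 133 and 82.7 to 163 TPM. The per-mouse mean over the 22 members, colon minus small intestine, was -0.221 ± 0.183 (SD, n = 6) in BALB/cJ and -0.802 ± 0.333 (SD, n = 7) in C57BL/6J. In bulk tissue, fewer cells of a type and less RNA per cell cannot be told apart.

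Cd22, a B cell inhibitory receptor gene, had colon ranges of 8.32 to 17 and 2.87 to 5.43 TPM (1.11 ± 0.16, adjusted p = 0.000652). Itgae, the integrin of intraepithelial lymphocytes, had colon ranges of 4.58 to 6.75 and 1.47 to 2.97 TPM, and ileum medians of 11.8 and 9.66 TPM (1.02 ± 0.133, adjusted p = 0.000272). Cd3d, of the T cell receptor complex, was higher in the BALB/cJ colon and lower in the BALB/cJ small intestine (1.27 ± 0.229, adjusted p = 0.00353). Igha, the constant region of IgA, differed in the duodenum/jejunum, with 857 to 3040 TPM in BALB/cJ and 3490 to 7190 TPM in C57BL/6J. Its colon ranges overlapped (1.27 ± 0.301, adjusted p = 0.0219). The difference of Igha was 0.724 for colon minus ileum, and its call was kept in 21 of 29 alternatives. Among antigen receptor segments, 26 of 252 were positive and 1 negative, against 2.94% and 2.68% of all genes tested.

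With the per-mouse B cell mean as a covariate, 779 genes were called, 203 positive and 576 negative, and 4 had opposite effects. Interferon-stimulated genes then had 39 members positive, guanylate-binding genes 4, MHC class I genes 7, MHC class II genes 0, B cell genes 1, T cell genes 2 and plasma cell genes 0. The covariate itself differed between strains (exact permutation test over 1716 splits, 2-sided p = 0.00408), so that it shares variation with strain. The part of lymphoid content thus cannot be told apart from strain in any of these lists, whether they kept or lost their calls.

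**Figure D4:**
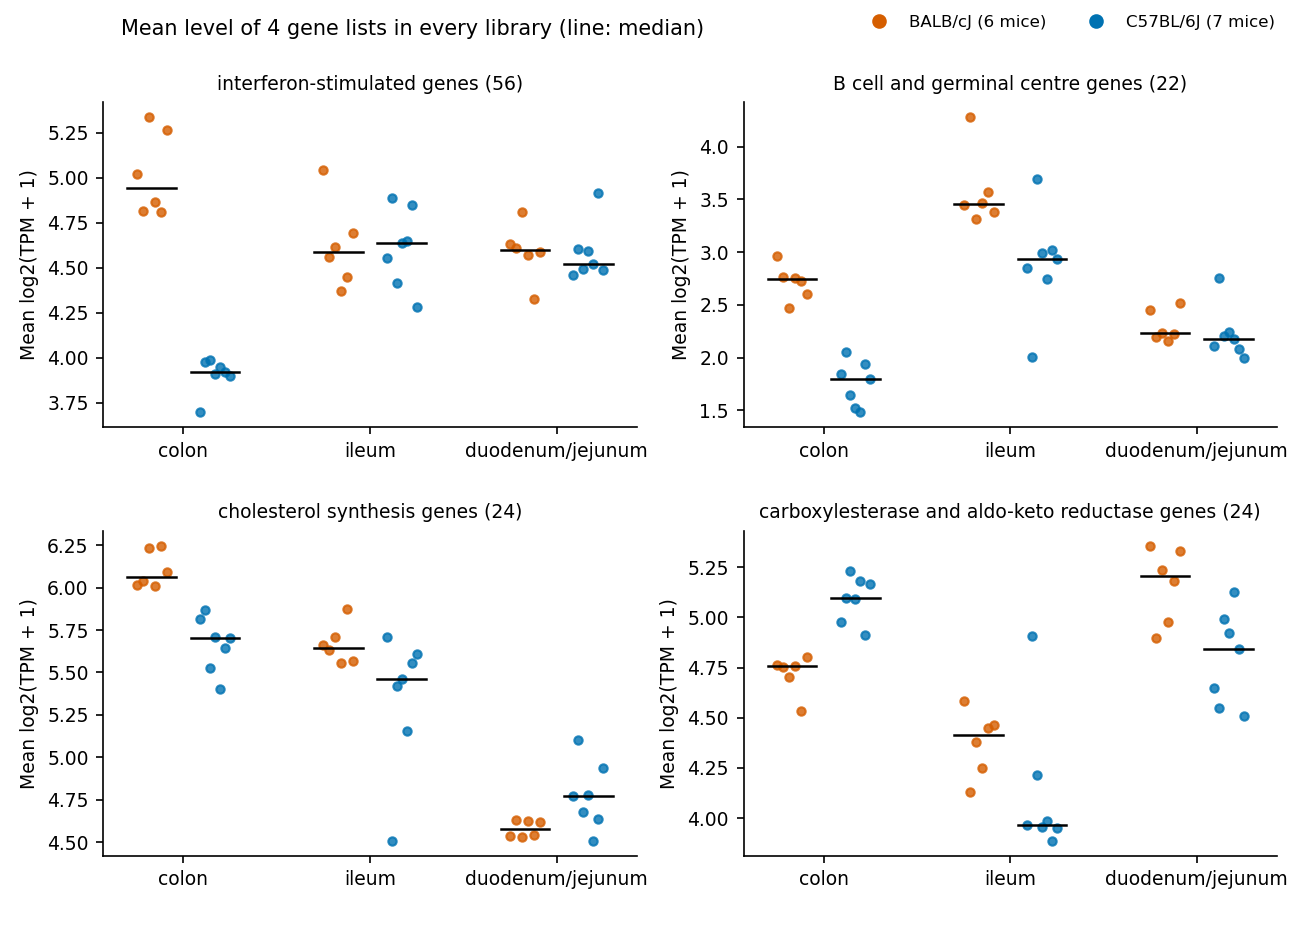
Mean log2(TPM + 1) over the members of 4 gene lists in every library, by part of the gut, with BALB/cJ (6 mice) in orange, C57BL/6J (7 mice) in blue and the median as a line. The C57BL/6J colon is low for the interferon-stimulated genes, and the carboxylesterase and aldo-keto reductase list is lower in the BALB/cJ colon and higher in the BALB/cJ small intestine medians.

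Alpha-defensins, the peptides that Paneth cells release into the crypt, held the largest regional strain differences among named genes, and these came from the small intestine. Of 25 Paneth cell products tested, 10 were positive and 2, Defa27 and the phospholipase gene Pla2g2a, were negative (median 0.51). The shares over all genes tested were 2.94% and 2.68%. Defa2 (chr8:21378515-21379495) was listed at 0 in all BALB/cJ ileum libraries and had 57.9 to 4230 TPM (median 3660) in the C57BL/6J ileum, and in the colon of both strains it was close to 0 (10.50 ± 0.421, adjusted p = 7.94e-10). Defa21, Defa33, Defa20, Defa22, Defa32 and Defa26 had the same sign, from 10.20 for Defa21 to 7.28 for Defa26. Defa27 (chr8:21315546-21316481) ran the other way, with 2700 to 4530 TPM in the BALB/cJ ileum and 0 to 7.49 TPM in the C57BL/6J ileum (-9.19 ± 0.652, adjusted p = 5.56e-07). The lowest C57BL/6J ileum values of the Defa genes listed were those of the library of mouse 2 that goes against its label.

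The family total did not follow its members. The 22 Defa genes summed to 35800 ± 4880 TPM (SD, n = 6) in the BALB/cJ ileum and 81100 ± 41800 TPM (SD, n = 7) in the C57BL/6J ileum, and to 37000 ± 13300 and 45600 ± 11000 TPM in the duodenum/jejunum. The regional strain difference of the sum was 0.644 (exact permutation test, 2-sided p = 0.118, adjusted over 4 families 0.157), and without C57BL/6J mouse 2 it was 0.847 (exact p = 0.0303). The copies are nearly identical and differ in number between strains, so that reads could be assigned to any of them. Defa17, another member, had ileum medians of 5970 TPM in BALB/cJ and 7970 TPM in C57BL/6J (0.40 ± 0.321, adjusted p = 0.558).

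A further pattern was a strain effect in all parts that was larger in the small intestine. St3gal4 (chr9:35046576-35119268), a sialyltransferase that caps glycans, had 20.1 to 29.5 TPM in the BALB/cJ and 202 to 286 TPM in the C57BL/6J colon, 9.77-fold by means. In the ileum it had 6.67 to 13.6 and 1100 to 1830 TPM, 146-fold, and in the duodenum/jejunum 4.38 to 9.58 and 941 to 1420 TPM, 175-fold (3.92 ± 0.188, adjusted p = 5.45e-09). Within BALB/cJ the colon was thus the highest part and within C57BL/6J the lowest. Sialylation and O-glycosylation genes of the list, 33 tested, were positive in 5 cases including St3gal4 and negative in 6. All genes tested had shares of 2.94% and 2.68%. St3gal6 was higher in the BALB/cJ small intestine, with ileum medians of 63.2 and 22 TPM, and overlapped in the colon (-1.07 ± 0.184, adjusted p = 0.00247). B3gnt3, which extends O-glycans, was lower in BALB/cJ everywhere (0.44 ± 0.0698, adjusted p = 0.00144).

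Sprr2a genes encode small proline-rich proteins of epithelium. The sum of Sprr2a1, Sprr2a2 and Sprr2a3 was 1530 ± 197 TPM (SD, n = 6) in the BALB/cJ and 7810 ± 527 TPM (SD, n = 7) in the C57BL/6J colon, and 119 ± 47.3 and 2900 ± 890 TPM in the ileum (2.434, exact permutation test, 2-sided p = 0.000583, adjusted over 4 families 0.00117). Sprr2a1 and Sprr2a2 overlap in the annotation and are near-identical, and the sum is the safer value. Acta1, the skeletal muscle actin gene, had colon medians of 4.17 and 9.31 TPM and ileum medians of 1.65 and 31.5 TPM (2.49 ± 0.355, adjusted p = 0.000581). Dynlt1a, one of several near-identical dynein light chain genes, was at 0 in all BALB/cJ ileum libraries and at 22.8 to 43.7 TPM in the C57BL/6J ileum (2.00 ± 0.27, adjusted p = 0.000353).

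Membrane mucins differed by member. Muc4 had colon medians of 111 and 114 TPM and ileum medians of 8.70 and 30.4 TPM (1.23 ± 0.203, adjusted p = 0.00186). Muc1 instead differed in the colon, with medians of 13.8 and 5.34 TPM (1.07 ± 0.208, adjusted p = 0.0059). No general direction was found among the 8 mucin genes tested, of which 2 were positive and 0 negative (median 0.0452). Shares over all genes tested were 2.94% and 2.68%. Reg3g, a bactericidal lectin gene, passed narrowly (1.62 ± 0.44, adjusted p = 0.0448) and lost its call in 20 of the 29 alternatives.

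Among the lists, 2 of drug and xenobiotic metabolism held the most negative calls. These enzymes hydrolyse, reduce or conjugate foreign and dietary compounds before excretion. Of 24 carboxylesterase and aldo-keto reductase genes 10 were negative and 0 positive (median -0.576), against 2.68% and 2.94% of all genes tested. Of 31 glutathione S-transferase and glucuronosyltransferase genes 10 were negative and 1 positive (median -0.445). In the colon of BALB/cJ, 8 members of the first list were lower and 1 higher, and 5 were higher and 0 lower in the BALB/cJ small intestine. In the second, 6 were lower and 2 higher in the colon, and 8 were higher and 4 lower in the small intestine. Of all genes tested, 10.1% were lower and 13.9% higher in the colon, and 10.6% higher and 4.55% lower in the small intestine. The first count was 8 to 11 when each mouse was left out in turn, the second 5 (without BALB/cJ mouse 1) to 14 (without C57BL/6J mouse 2). The positive member of the second list was Gsta1, named after its value was seen (1.48 ± 0.371, adjusted p = 0.0285). With the B cell covariate they were 2 and 3, with RLE scaling the second was 4, and for colon minus ileum the first was 2.

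Cbr3 (chr16:93683215-93690990), a carbonyl reductase gene, had 2.87 to 4.48 TPM in the BALB/cJ and 21.4 to 32.1 TPM in the C57BL/6J colon and 3.21 TPM or less in the small intestine (-2.64 ± 0.154, adjusted p = 6.09e-08). Cbr1 had colon ranges of 61.9 to 88.5 and 141 to 183 TPM and duodenum/jejunum medians of 171 and 165 TPM (-1.35 ± 0.193, adjusted p = 0.000596). Akr1b7, an aldo-keto reductase gene, had colon medians of 3.18 and 7.29 TPM (-1.07 ± 0.185, adjusted p = 0.00262). Aadac, a deacetylase gene of drug metabolism, had colon ranges of 25.6 to 32.5 and 53.7 to 74.2 TPM (-1.67 ± 0.266, adjusted p = 0.00133).

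Other enzymes were higher in the BALB/cJ small intestine. Fmo2 (chr1:162874317-162898726), a flavin monooxygenase gene, had ileum ranges of 42.3 to 51.0 TPM in BALB/cJ and 4.77 to 16.4 TPM in C57BL/6J and overlapping colon ranges (-1.80 ± 0.165, adjusted p = 1.05e-05). Gstm2 was higher in BALB/cJ in both regions, with colon medians of 224 and 107 TPM and ileum medians of 100 and 19 TPM (-1.28 ± 0.162, adjusted p = 0.000208). Mgst1 had ileum medians of 859 and 512 TPM (-0.87 ± 0.121, adjusted p = 0.000466), and Gstp1 431 and 291 TPM (-0.64 ± 0.0827, adjusted p = 0.000249). Acaa2, a thiolase of mitochondrial fatty acid oxidation, had duodenum/jejunum medians of 224 and 112 TPM and colon medians of 101 and 97.1 TPM (-0.82 ± 0.109, adjusted p = 0.00031).

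Cholesterol synthesis genes are regulated together by sterol sensing in the endoplasmic reticulum. They were positive in 11 of 24 cases and negative in 0 (median 0.446), against 2.94% and 2.68% of all genes tested. In the BALB/cJ colon 17 were higher and 1 lower, against 13.9% and 10.1% of all genes tested. In the BALB/cJ small intestine 2 were higher and 1 lower, which is near the shares over all genes of 10.6% and 4.55%. Insig1, which holds back the sterol sensor, had colon ranges of 145 to 196 and 50.7 to 101 TPM and ileum medians of 68.9 and 38.6 TPM (0.53 ± 0.113, adjusted p = 0.0111). Idi1, an isomerase of the pathway, had colon ranges of 86.6 to 112 and 45.2 to 71.0 TPM (0.48 ± 0.0931, adjusted p = 0.00572). Sc5d, which acts late in the pathway, had opposite effects, with duodenum/jejunum ranges of 44.3 to 54.4 and 67.1 to 83.0 TPM (0.56 ± 0.0721, adjusted p = 0.000219). The count was 1 for colon minus ileum and 18 for colon minus duodenum/jejunum, 2 with the B cell covariate, and it ran from 5 (without BALB/cJ mouse 3) to 16 (without C57BL/6J mouse 2) when each mouse was left out.

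**Figure D5:**
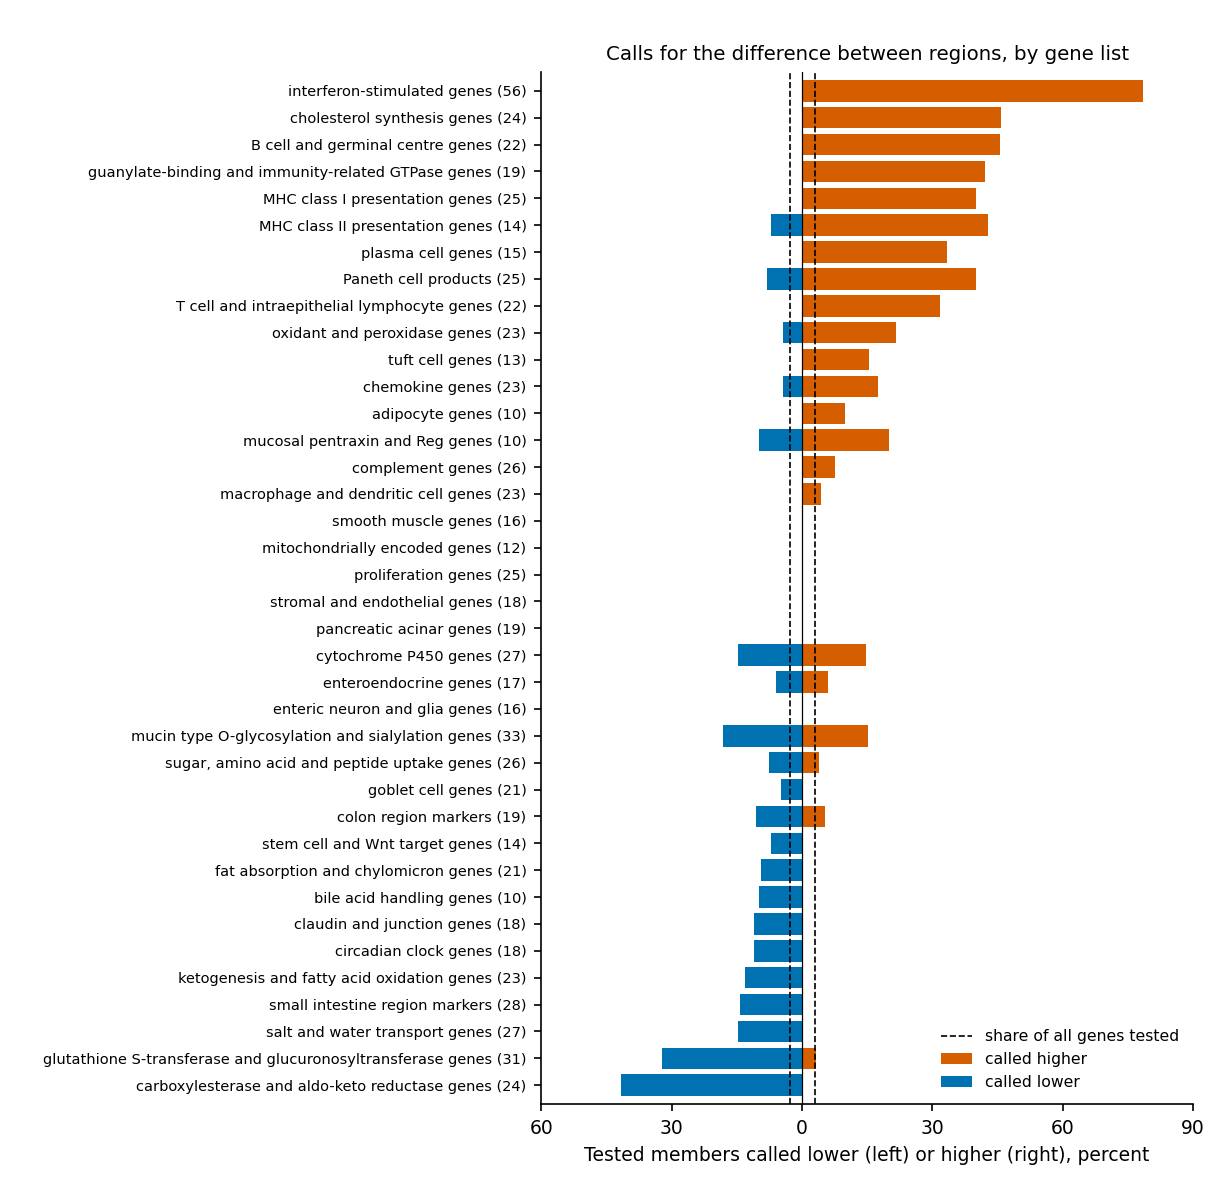
Share of tested members called positive (orange, right) or negative (blue, left) for the regional strain difference, in percent, for the gene lists with 10 or more members tested (number in brackets). Dashed lines give the shares over all genes tested, 2.94% and 2.68%.

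Some lists held no call. None of 25 proliferation, 16 smooth muscle, 16 enteric neuron and glia, 18 stromal and endothelial or 12 mitochondrially encoded genes passed the test. Of all genes tested, 5.62% passed. Proliferation genes had 17 members called lower in the BALB/cJ colon and 1 in the small intestine, against 10.1% and 4.55% of all genes tested. Their median regional strain difference was -0.298. Among 19 pancreatic acinar genes none was called although the median was 2.12. Their mean log2(TPM + 1) ranged from 1.66 to 8.71 in the BALB/cJ and from 1.69 to 8.97 in the C57BL/6J duodenum/jejunum. In the colon it ranged from 1.74 to 6.35 (median 2.01) in BALB/cJ and from 1.74 to 2.28 in C57BL/6J. The median strain effect of these genes was 1.48 in the colon and -0.703 in the small intestine. At an unadjusted p under 0.05 (limma) the counts were 0 smooth muscle, 2 neuron and glia, 1 stromal, 3 pancreatic, 5 proliferation and 2 mitochondrial genes. Over all 17126 genes tested that count was 3208.

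For comparison, 6 genes with a strain effect of like size in both regions were chosen by the smallest regional strain difference. Pm20d1, an enzyme gene of N-acyl amino acids, was 1.83 log2 higher in BALB/cJ in the colon and 1.83 in the small intestine (difference 0.00 ± 0.151). Phgr1, an epithelial gene, had 1.10 and 1.07, and Cbx7, a Polycomb gene, had -1.03 and -1.04. Bco2, Tmod4 and Olfr1033 completed the set, with differences of -0.02, -0.01 and 0.03. Their selection fixes that the effects are alike, and they are given as a description.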

How the data were processed

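Total RNA from colon, ileum and duodenum/jejunum was depleted of ribosomal RNA and sequenced, per the labels' protocols. The authors deposited log2(TPM + 1) values per gene, made with kallisto 0.44.0 and GRCm38, per the submitters' processing notes. The transcript annotation was not given in the sources used here. Of 34600 entries per table, 26 date-named ones (at most 0.24% of TPM) were dropped and 34574 kept. Every value column was mapped to a sample.

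Groups came from the labels. Genes with 1 TPM or more in 6 or more of the 39 libraries were tested with limma 3.58.1 (R 4.3.3; trended empirical Bayes) on per-mouse colon minus small intestine differences, with Benjamini-Hochberg adjustment over all 17126 genes. Strain effects within the colon and within the small intestine mean were fitted the same way. Differences are on the log2(TPM + 1) scale, which understates changes of low genes. Fold values are ratios of mean TPM. Sums over 4 families and the B cell mean were compared by 2-sided exact permutation tests over 1716 splits. The script was tested on simulated data. Depth is unknown from TPM, and nothing in the labels says how mice were housed or paired, so p-values measure the spread between these mice.

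Parts of one mouse share its number. Deviations from group means correlated with a median r of 0.151 within mice (39 pairs, -0.162 to 0.382) and -0.0122 between mice (468 pairs), and each difference is taken within a mouse, as the labels' mouse number allows.

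The gene lists (43) and the comparison itself were chosen with earlier results of these data known. Genes were named by a rule: the largest called differences in each direction at 5 TPM or more without overlap, opposite and same-direction patterns by size, up to 3 called members per list by adjusted p, up to 6 genes with like effects in both regions, and the most abundant members of cell type lists. Predicted genes, pseudogenes and receptor segments were left out of it. Interferon genes with printed promoters were the called members with the motif, by size of difference. Promoters came from RefSeq (GRCm38.p6). Alternatives were RLE scaling (size factors 0.78 to 1.22), centring, pseudocounts of 0.1 and 5, other filters, each small intestine part alone, no replicate block, a mouse-level correlation, other limma settings, a B cell covariate, each mouse left out, and 3 settings added after seeing the data. Results that name 2 genes are not reported here, and both genes stay in the counts over lists.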

Additional observations from a re-analysis of the deposited data

Results flagged for a closer look

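The strain effect differed between colon and small intestine, by the test of the difference itself, in 962 genes, which are described above.

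Among 308 groups of per-mouse values (colon minus small intestine, log2) of named genes, 28 held a mouse far from the others, and chance gives about 1 in 20. The groups come from the same mice and hold related genes, so they are not independent. Whether 28 exceeds chance was not tested. C57BL/6J mouse 2 stood apart in Defa17 (-7.98), Defa2 (-8.03), Defa29 (-6.47), Defa33 (-6.38), Defa35 (-1.89) and Defa5 (-4.80), in the lymph node homing receptor gene Ccr7 (0.14), in the incretin gene Gip (-6.55) and in the neuropeptide gene Vip (2.68). Its ileum library goes against its label in Fabp6 and Tmprss15, and its duodenum/jejunum library in Fabp6 alone.

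BALB/cJ mouse 2 stood apart in Aadac (-0.63), Apob (-6.48), the complement gene C1qa (-0.60), Gbp7 (-0.34), Gip (-5.16), Olfr1033 (-0.68), the smooth muscle gene Tagln (1.81) and the plasma cell receptor gene Tnfrsf17 (-1.33). BALB/cJ mouse 5 did so in Defa32 (-2.38), the gastric genes Gkn3 (-0.64) and Tff2 (1.63), and Guca2a (0.91), and BALB/cJ mouse 1 in Lpo (7.5).

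Other C57BL/6J mice stood apart in Dbp (mouse 3, 0.32), Klk15 (mouse 3, 0.03), Hoxd13 (mouse 4, 3.11), Myl7 (mouse 1, -2.49), the peptidase gene Xpnpep2 (mouse 1, -5.04) and Sc5d (mouse 5, -0.61).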

How the results depend on the processing

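Depth cannot be read from TPM, and near-identical genes share reads. Levels of pancreatic genes varied between duodenum/jejunum libraries of both strains and between BALB/cJ colon libraries. C57BL/6J mouse 2 has an ileum library that goes against its label in both marker genes. The duodenum/jejunum library of that mouse does so in Fabp6 but not in Tmprss15. Results that differ between ileum and duodenum/jejunum are thus the least certain. The causes of the changes below were not tested.

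Positive calls, 503 in the comparison as reported, were 233 for colon minus ileum, 872 for colon minus duodenum/jejunum, 203 with the B cell covariate, 842 without mouse 2 of both strains, and 929 for colon minus duodenum/jejunum without C57BL/6J mouse 2. Negative calls, 459 as reported, were 724 for colon minus ileum without C57BL/6J mouse 2. The settings above that leave out mouse 2 were chosen after seeing the data. Of the 962 calls, 474 were kept with the same sign for colon minus ileum, 714 for colon minus duodenum/jejunum, 836 with RLE scaling and 393 with the B cell covariate. Leaving out each mouse in turn gave 723 to 1096 calls in all, 383 to 627 positive, 312 to 614 negative and 36 to 65 opposite. The opposite count was 50 as reported and 4 with the B cell covariate.

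The replicate block is built into the per-mouse difference. With no replicate block, 867 genes were called (444 positive, 423 negative), and with a mouse-level correlation of 0.0963 (duplicateCorrelation) 1065 were called. Both of these settings fitted all 39 libraries together in 6 groups, with the spread pooled over the parts of the gut. The colon test as reported used a single library per mouse, so it held no replicate block to remove. With no replicate block, the ileum and duodenum/jejunum libraries of a mouse were treated as independent. The colon and small intestine counts under these settings thus differ from those reported in more than the block. Colon calls, 4107 as reported, were 2450 with no replicate block and 2452 with the mouse-level correlation. They were 431 with the B cell covariate and 3511 to 4377 with a mouse left out. Small intestine calls, 2588 as reported, were 1565 for the duodenum/jejunum, 1474 for it without C57BL/6J mouse 2, 4646 with no replicate block, 4199 with the mouse-level correlation and 1085 with the B cell covariate, and 2157 to 2880 with a mouse left out. The Defa sum ran from 0.452 to 0.847 with a mouse left out. Among named genes, Cyp4a10 changed sign to 0.103 for colon minus ileum and Nr0b2 to 0.032 for colon minus duodenum/jejunum without C57BL/6J mouse 2. With the B cell covariate 66 of the 116 named genes that were called kept their call and sign and 50 lost their call. Of the 38 named genes that were not called, 2 gained a call and 11 changed sign.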

Other observations

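Of 23 chemokine genes, 4 were positive and 1 negative (median 0.34), against 2.94% and 2.68% of all genes tested, and 18 were not called. Ccl20, which attracts lymphoid cells and dendritic cells, had 7.5 to 12.1 TPM in the BALB/cJ and 2.26 to 4.18 TPM in the C57BL/6J colon, and ileum medians of 3.32 and 3.65 TPM (regional strain difference 0.98 ± 0.216, limma adjusted p = 0.0137). Cx3cl1, fractalkine, ran the other way, with colon medians of 15.9 and 50.4 TPM and ileum medians of 33.9 and 54.5 TPM (-1.02 ± 0.161, adjusted p = 0.00127). Hmox1, a heme oxygenase gene, had colon ranges of 5.46 to 9.63 and 2.63 to 3.94 TPM without overlap (0.74 ± 0.136, adjusted p = 0.00403).

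Of 27 salt and water transport genes, 4 were negative and 0 positive (median 0.00469), against 2.68% and 2.94% of all genes tested. Guca2a, described above, Car12 and Cftr were among the 4. Car12, a carbonic anhydrase gene, had ileum ranges of 19.7 to 30.1 TPM in BALB/cJ and 3.64 to 13.2 TPM in C57BL/6J and overlapping colon ranges (-1.10 ± 0.19, adjusted p = 0.00264). Cftr, the chloride channel of crypt cells, had ileum medians of 62.7 and 41.8 TPM and colon medians of 75.1 and 80.6 TPM (-0.52 ± 0.103, adjusted p = 0.00695). The clock output gene Dbp was higher in BALB/cJ in both regions, with colon medians of 43.4 and 20.8 TPM and duodenum/jejunum medians of 61.4 and 14.3 TPM (-0.63 ± 0.153, adjusted p = 0.0244), but it kept its call in only 17 of 29 alternatives and the difference was -0.365 for colon minus ileum. No hour of collection is recorded in the labels.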
